A study of Homo sapiens with 10 samples.

Results

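The genes described here are the 50 protein-coding genes that make up the cullin-2 and cullin-5 ubiquitin ligases and most of the substrate receptors they carry. They were chosen by name only, from GENCODE release 44: every ASB, SOCS 1 to 7 and SPSB 1 to 4 gene, CISH, the 8 shared subunits and accessory enzymes, LRRC58, and 11 receptors that dock on CUL2. All 50 were found among the 78894 genes of the table, and 42 of them passed the filter on low values (at least 3 of the 10 libraries had to reach 10 normalized counts), as did 29045 genes in all. The 8 that did not pass were all ASB genes: ASB2, ASB4, ASB5, ASB9, ASB10, ASB11, ASB15 and ASB17. Their highest value in any library was 13.6 normalized counts, in ASB11, and they were not tested.

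The libraries came from HEK293T, a human embryonic kidney cell line that carries SV40 large T antigen, and every group held unmodified cells cultured for 24 h. The groups differed in the cysteine of the medium: 2 libraries from cysteine-free medium (0X), 4 from complete medium (1X) and 4 from medium with excess cysteine (10X). Poly(A) RNA was sequenced, and the values are normalized counts, that is, reads per gene divided by a size factor for the library. The study addressed which ubiquitin ligases respond to cysteine supply, and RNA was measured to see whether a change at the protein level could have started with the transcript. These libraries measure transcripts only: neither protein, nor neddylation, nor ligase activity was measured in them, and a single cell line at 1 time point limits each group as a model.

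A cullin-RING ligase is built on a cullin scaffold. One end of the scaffold holds a RING protein, RBX1 on CUL2 and RNF7 on CUL5, which recruits the enzymes that carry ubiquitin, among them the RBR enzymes ARIH1 and ARIH2. The other end holds the adaptors ELOB and ELOC (elongins B and C), onto which interchangeable receptors with a BC box dock, each bringing its own substrates. CUL2 receptors include VHL, which recognizes hydroxylated hypoxia-inducible factors, and the FEM1, KLHDC, ZYG11B and ZER1 proteins, which read the ends of proteins. CUL5 receptors include the SOCS proteins, feedback inhibitors of cytokine signaling, and the ASB and SPSB families. LRRC58 is the receptor that targets the cysteine dioxygenase CDO1, and the study reports that it can work with CUL2 or CUL5.

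The upstream sequence is shown for 5 members whose values carry the comparisons below: LRRC58, the receptor that the study went on to follow, RBX1, the core subunit that differed most between complete and excess medium, FEM1B and SOCS4, receptors with large increases in excess medium, and CISH, the member with the largest fall there. They were picked after the values were seen. Each stretch is the part of RefSeq's 250 bases upstream of the annotated start that lies outside any exon, read 5′ to 3′ in the direction of the gene from GRCh38.p14. Capitals mark matches, on either strand, to the STAT motif TTCNNNGAA or to the core of the antioxidant response element, TGACNNNGC.

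LRRC58, chr3:120349355-120349448, minus strand: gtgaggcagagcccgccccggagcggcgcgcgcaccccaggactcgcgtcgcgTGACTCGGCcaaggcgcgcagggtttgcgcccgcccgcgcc

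RBX1, chr22:40951128-40951346, plus strand: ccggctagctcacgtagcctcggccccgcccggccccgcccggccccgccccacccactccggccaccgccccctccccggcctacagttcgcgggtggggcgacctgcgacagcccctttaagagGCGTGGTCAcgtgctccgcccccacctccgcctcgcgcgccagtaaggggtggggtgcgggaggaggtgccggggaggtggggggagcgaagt

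FEM1B, chr15:68277495-68277744, plus strand: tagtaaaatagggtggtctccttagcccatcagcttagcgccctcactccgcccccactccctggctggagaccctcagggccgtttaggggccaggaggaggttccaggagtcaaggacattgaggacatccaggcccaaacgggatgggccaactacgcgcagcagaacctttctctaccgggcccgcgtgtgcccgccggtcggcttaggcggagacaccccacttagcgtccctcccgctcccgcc

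SOCS4, chr14:55027106-55027229, plus strand: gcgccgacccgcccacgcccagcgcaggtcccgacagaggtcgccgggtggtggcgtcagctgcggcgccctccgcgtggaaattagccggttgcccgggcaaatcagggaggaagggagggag

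CISH, chr3:50611775-50611907, minus strand: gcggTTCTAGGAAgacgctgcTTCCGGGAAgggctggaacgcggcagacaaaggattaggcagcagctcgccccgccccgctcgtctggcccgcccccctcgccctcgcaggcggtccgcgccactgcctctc

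The CISH stretch held a pair of STAT matches close together, and the LRRC58 and RBX1 stretches each held an antioxidant element core. Matches were also sought over whole 300-base windows (250 bases before a start and 50 after it). The 41 members with a window held 50 windows, and a member counted if any of its windows matched. A share of members and a share of windows are therefore unlike measures. The STAT motif was found in 3 of the 41 members (CISH, ASB15 and ASB17) and in 7.66% of 35116 windows. The antioxidant core was found in 13.3% of windows and in 10 of the 41 members: APPBP2, ASB10, CUL5, FEM1A, FEM1C, KLHDC2, LRRC58, RBX1, SOCS4 and SPSB3. The SOCS4 match lies outside the stretch printed above. The cAMP response element TGACGTCA was in the window of RNF7 alone among the members and in 1.85% of all windows, and the ATF4 element TGATGCAA in that of ASB5 alone and in 0.866% of all windows. These are matches of letters, and no binding was measured. ASB16, ELOC, KLHDC10, SOCS2, SOCS5, SOCS7, SPSB1, VHL and ZER1 had no window.

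Between 34836014 and 61654861 reads per library fell on genes, so counting error was small for nearly all members, and the number of libraries sets the precision. All 11 markers fixed for the HEK293 line were at 10 or more in every library; the defining T cell marker CD3E was at 0 throughout, and none of the 3 liver or 2 squamous markers reached 10 in every library, while 2 of 4 blood, 1 of 3 fibroblast and both muscle markers did. Mitochondrially encoded genes held 4.51% to 5.71% of the reads in the cysteine-free and complete libraries and 0.117% to 0.146% in the excess libraries. That lower share moves with excess medium in both comparisons that include it, and its part in them was not tested. Within the complete group, replicates 3 and 4 stood at opposite ends: for 15 of the 42 members (35.7%) one of them was the highest library and the other the lowest, as for 25.6% of all genes tested. Replicate 3 was highest and replicate 4 lowest for ASB13, ASB16, FEM1B, KLHDC2, LRR1, SOCS2, SOCS6, SPSB1 and SPSB4, and the reverse held for ASB1, ASB6, CISH, KLHDC10, SOCS4 and SOCS7.

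**Figure D1:**
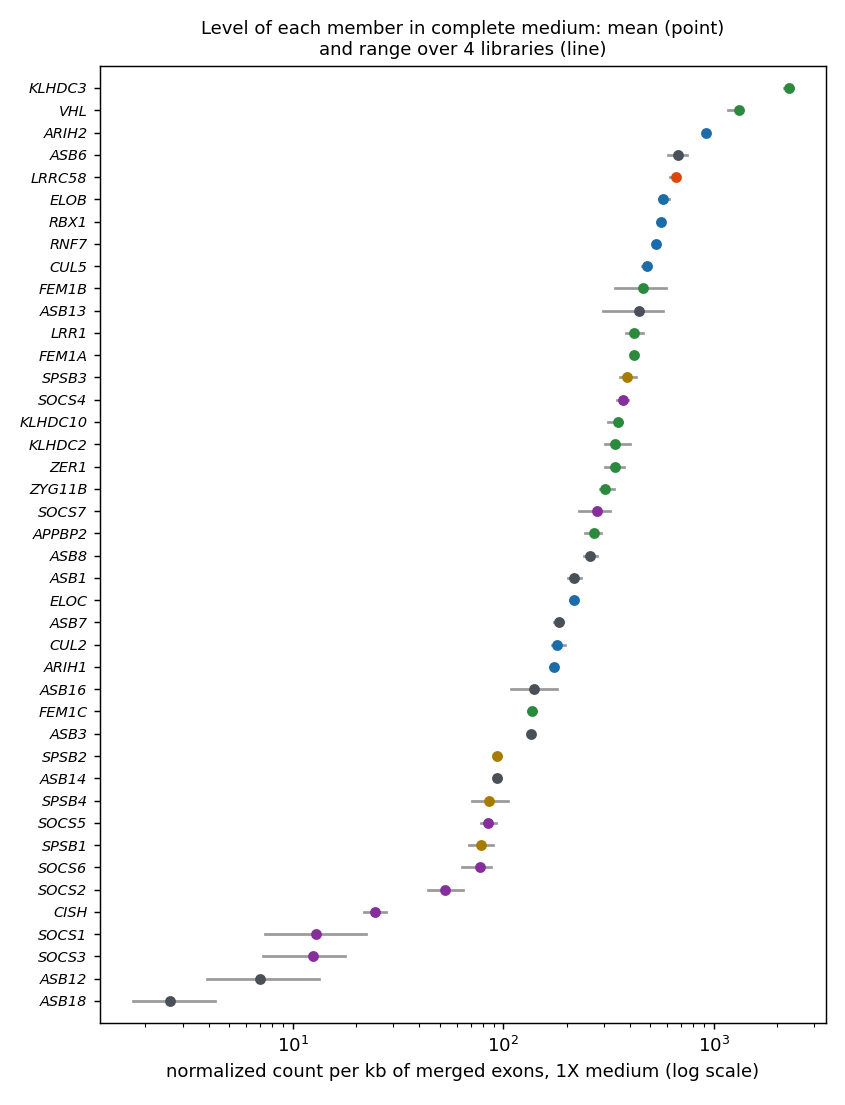
Level of the 42 members that passed the filter in complete medium, as normalized counts per kb of merged exons on a log axis, with the mean as a point and the range over 4 libraries as a line; blue is core subunits, orange LRRC58, green CUL2-type receptors, purple the SOCS family, yellow the SPSB family and grey the ASB family. KLHDC3 and VHL are highest, and ASB18, ASB12, SOCS3 and SOCS1 lowest.

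The members covered a wide range of levels in complete medium, shown in the plot of levels per kb. Per kb of merged exons, the highest was KLHDC3, a CUL2 receptor that reads C-terminal glycine degrons, at 2263 ± 115 normalized counts per kb (SD, n = 4). VHL followed at 1311 ± 98.7, ARIH2 at 914 ± 18.4, ASB6 at 673 ± 57.3 and LRRC58 at 658 ± 29.5. LRRC58 was thus among the receptors with the most transcript per length in these cells, and its range overlapped that of ASB6. The scaffolds stood lower, with CUL5 at 483 ± 19.2 and CUL2 at 181 ± 11.7 per kb, and the SOCS family spanned 370.2 ± 17.6 for SOCS4 to 12.4 ± 4.38 for SOCS3 on the same scale. Levels per kb rest on all annotated exons of a gene, so a gene with long and rarely used exons reads low.

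Each comparison between media was tested with limma on log2(normalized count + 1), 2-sided, and p-values were adjusted by Benjamini-Hochberg over all 29045 genes; an adjusted p up to 0.01 made a call. A log2 fold change below is the difference on that scale, with the standard error of the fit. Both comparisons with complete medium use the same 4 complete libraries, so they are not independent of each other; excess and cysteine-free medium were also compared directly. In bulk RNA, less of a transcript per cell and fewer cells that hold it cannot be told apart.

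In cysteine-free against complete medium, 11 of the 42 members were called, 1 higher and 10 lower. Of all genes tested 15.9% were called, 7.39% higher and 8.51% lower, and of those with a mean of 100 or more 24.1% were called, 10.9% higher and 13.2% lower; all 11 members called lie among the 38 with such a mean. The median log2 fold change of the members was -0.11, against 0.00 over all genes, and no member passed with a change of 2-fold or more. The share called is thus near that of genes of like abundance, while 10 of the 11 calls were decreases. The groups did not overlap for 27 of the 42 (64.3%), all among the 38 with a mean of 100 or more, where the share was 71.1%, against 46.9% of all genes and 58% of those of that mean. Only FEM1A and ASB6 kept their call whichever library was left out, and ASB6 lost its call with no filter on low values (adjusted p = 0.0191). The count was 7 without complete replicate 1 or 2, and 17 without complete replicate 3. Calls over all 29045 genes moved in the same direction. They numbered 4618 with every library, 2968 without complete replicate 1, 2795 without replicate 2 and 6300 without replicate 3.

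In excess against complete medium, 23 of the 42 were called, 16 higher and 7 lower. This comparison called 46% of all genes, 23.1% higher and 22.9% lower, and 61.9% of those with a mean of 100 or more, 28.9% higher and 33% lower; of the 38 members with such a mean, 21 were called. The members' median was 0.11, against 0.01 over all genes, and FEM1B, SOCS1 and ASB18 changed by 2-fold or more. The members were therefore called about as often as other genes. Of the 23 calls, 21 were kept whichever library was left out, the exceptions being SOCS1 and ASB18. Scaling every library to the same total, in place of the size factors, moved the median of all genes from 0.01 to 0.12 and the share of all calls that were higher from 50.3% to 61.8%; 29 members were then called, 22 higher and 7 lower.

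In the direct comparison of excess with cysteine-free medium, 28 of the 42 were called, 23 higher and 5 lower in excess medium. The background was 48% of all genes, 24.4% higher and 23.6% lower, and at a mean of 100 or more it was 62.7%, 30% higher and 32.7% lower; 26 of the 38 members of that abundance were called. The members' median was 0.29, against 0.00 over all genes. The 5 lower in excess medium were ASB13, RBX1, ELOB, SOCS2 and KLHDC2, and SOCS4, SOCS1 and ASB18 were higher by 2-fold or more. Of the 28 calls, 22 were kept under every library left out. Besides CUL5 and SOCS2 below, those lost were SOCS6 (adjusted p = 0.0127 without cysteine-free replicate 1), KLHDC2 and ASB18 (0.0231 and 0.0585 without cysteine-free replicate 2) and SPSB1 (0.0107 to 0.0338 without either cysteine-free library or without excess replicate 1 or 4). Scaled to equal totals, the median of all genes was 0.08 and 60% of all calls were higher in excess medium, against 50.8% with the size factors.

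**Figure D2:**
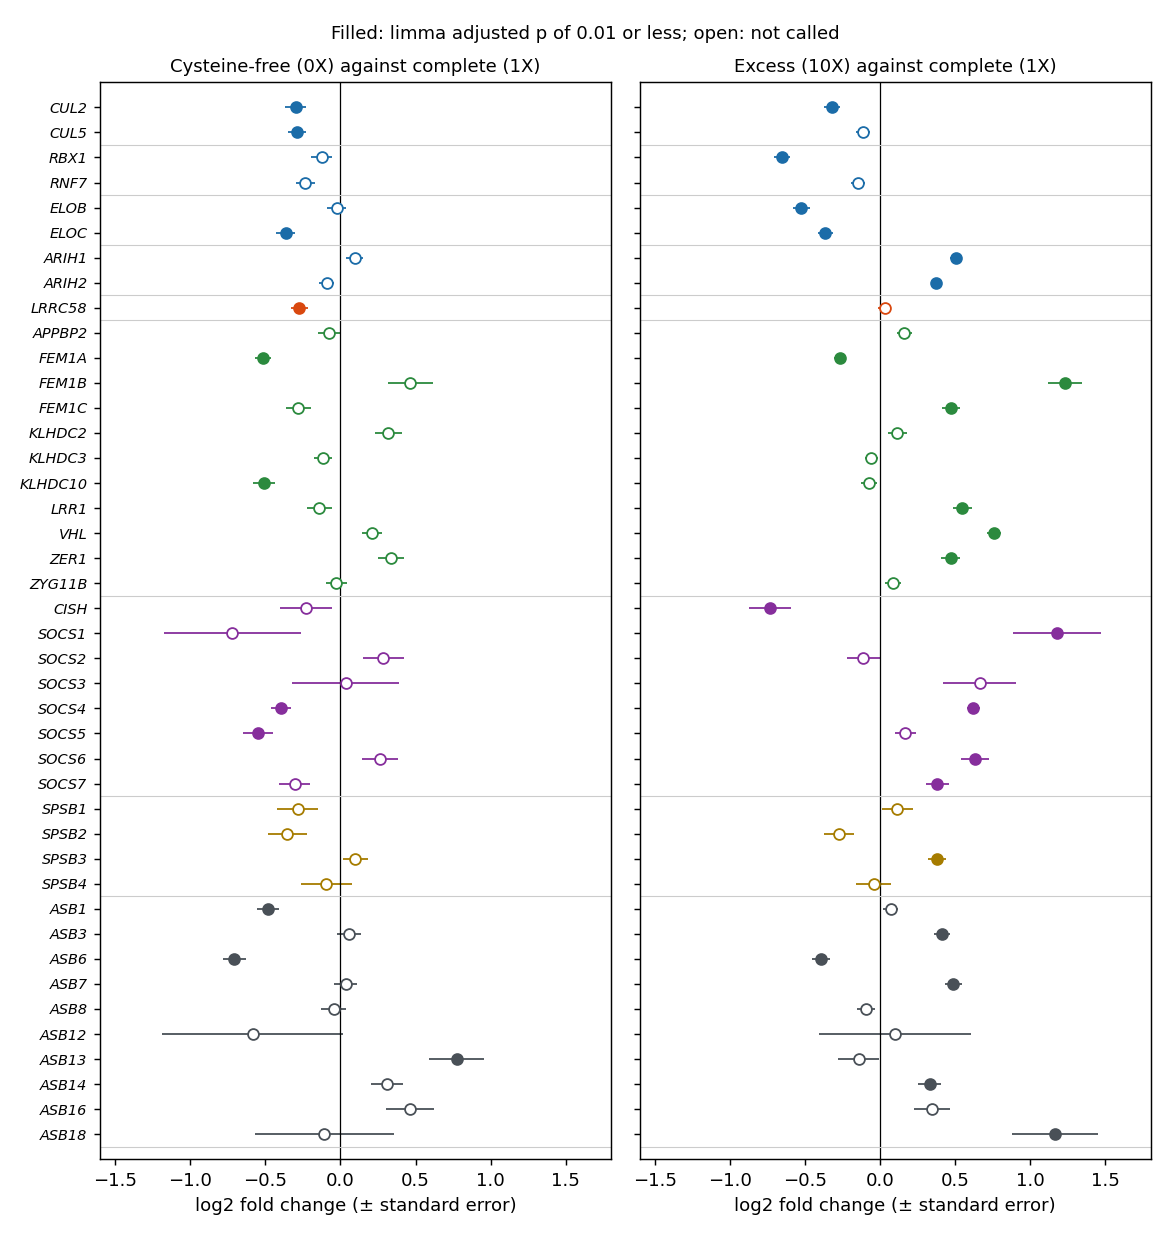
Log2 fold change with its standard error for the 42 members tested, ordered by role, in cysteine-free (left) and excess (right) medium, each against the same 4 complete libraries; filled points passed at an adjusted p of 0.01. On the left 10 of the 11 filled points lie below 0; on the right 16 of 23 lie above it, and the filled core subunits below 0 are CUL2, RBX1, ELOB and ELOC.

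Among the 8 core subunits and ubiquitin-carrying enzymes, the scaffolds and the adaptor ELOC were lower in cysteine-free medium, and in excess medium 4 subunits fell while both RBR enzymes rose. Beside this count and those by family below, 15.9% of all genes tested were called in cysteine-free and 46% in excess medium. At a mean of 100 or more these shares were 24.1% and 61.9%. CUL2, the scaffold of the VHL ligase, held 2843, 2649.8, 2462 and 2516 normalized counts in the 4 complete libraries, 2065 and 2187 in the cysteine-free and 2001, 2151, 2109.7 and 2100.4 in the excess libraries. Every library of either changed medium was below every complete library. The log2 fold change was -0.30 ± 0.07 in cysteine-free (adjusted p = 0.00605) and -0.32 ± 0.05 in excess medium (adjusted p = 4.41e-05). Between the changed media CUL2 differed by -0.02 ± 0.05 (adjusted p = 0.707).

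CUL5, the scaffold of the SOCS and ASB ligases, held 3280.3, 3204, 2989 and 3209 in complete, 2536 and 2644 in cysteine-free and 2792, 3131, 2821 and 2961 in excess medium. Its cysteine-free libraries were below all others, and its excess libraries overlapped the complete ones. It fell in cysteine-free medium (-0.29 ± 0.06, adjusted p = 0.00298) and was not called in excess medium (-0.12 ± 0.05, adjusted p = 0.0507), and the direct comparison called it higher in excess than in cysteine-free medium (0.18 ± 0.05, adjusted p = 0.0046). The calls of both cullins in cysteine-free medium were lost when any of 4 libraries was left out. Without cysteine-free replicate 1 the adjusted p was 0.103 for CUL2 and 0.0621 for CUL5, without replicate 2 it was 0.0438 and 0.0316, without complete replicate 1 it was 0.0192 and 0.0118, and without complete replicate 2 it was 0.0253 and 0.0143. The direct call of CUL5 was lost without cysteine-free replicate 1 (adjusted p = 0.0663) or 2 (0.0111) and without excess replicate 2 (0.0187) or 4 (0.0117), as well as with all 3 groups in one fit (0.0165) and with no filter on low values (0.0829).

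Of the RING proteins, RBX1 fell in excess medium, and RNF7 did not pass in any comparison at the filter and threshold used here. RBX1, the RING protein of CUL2 and of most other cullins, held 1795, 1684, 1777 and 1664 in complete, 1518 and 1655 in cysteine-free and 1048, 1132, 1069 and 1153 in excess medium. Its excess libraries were well below all others, at 63.6% of the complete mean (-0.65 ± 0.05, adjusted p = 1.82e-08), and it was not called in cysteine-free medium (-0.12 ± 0.07, adjusted p = 0.204). Excess was also lower than cysteine-free medium (-0.53 ± 0.06, adjusted p = 5.41e-08). RNF7, the RING protein specific to CUL5, held 1633, 1632, 1638 and 1672 in complete, 1410 and 1384 in cysteine-free and 1437, 1518, 1546 and 1437 in excess medium. Both changed media lay below the complete libraries, but neither difference was called (-0.23 ± 0.06, adjusted p = 0.0148 in cysteine-free; -0.15 ± 0.05, adjusted p = 0.0154 in excess medium). DESeq2 on the recovered reads, and limma with no filter on low values, called RNF7 lower in both. RBX1 shares no exon bases with another gene in GENCODE 44, and RNF7 shares few.

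Of the adaptors, ELOC fell in both changed media and ELOB in excess medium. ELOB held 3253, 3146, 3276 and 3486 in complete, 3083 and 3393 in cysteine-free and 2057, 2243, 2416 and 2445 in excess medium, so that only the excess libraries stood apart. It fell in excess medium to 69.6% of the complete mean (-0.53 ± 0.06, adjusted p = 4.61e-07) and was not called in cysteine-free medium (-0.02 ± 0.06, adjusted p = 0.816). ELOC held 2051, 1916, 2001 and 2076 in complete, 1561 and 1559.5 in cysteine-free and 1546, 1506, 1596 and 1594 in excess medium. It fell in both changed media (-0.37 ± 0.06, adjusted p = 0.000982 in cysteine-free; -0.37 ± 0.05, adjusted p = 5.32e-06 in excess medium), whose means were 1560.5 ± 1.39 and 1561 ± 43.1 normalized counts (SD, n = 2 and 4; adjusted p = 0.996 between them). In cysteine-free medium its call was lost without either cysteine-free library (adjusted p = 0.0228 without replicate 1 and 0.0247 without replicate 2). ELOB shares 7.12% of its exon bases with SRRM2 on the other strand, and ELOC shares none.

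The RBR enzymes, which add the first ubiquitin on neddylated cullins, rose in excess medium. ARIH1, which acts with RBX1-bound cullins, held 4122, 3826, 3912 and 4025 in complete, 4172 and 4301 in cysteine-free and 5491, 5817, 5645 and 5588 in excess medium. ARIH2, the partner of CUL5, held 7505, 7393, 7181 and 7237, 6662 and 7086 and 9189, 9631, 9582 and 9487 in the same order. All excess libraries were above all others for both genes. In excess against complete medium the log2 fold change was 0.51 ± 0.04 for ARIH1 (adjusted p = 1.17e-08) and 0.37 ± 0.04 for ARIH2 (adjusted p = 1.11e-07), and in cysteine-free medium neither was called (0.09 ± 0.06 and -0.09 ± 0.05, adjusted p = 0.236 and 0.199). ARIH1 shares 12.8% and ARIH2 13.1% of its exon bases with other genes.

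**Figure D3:**
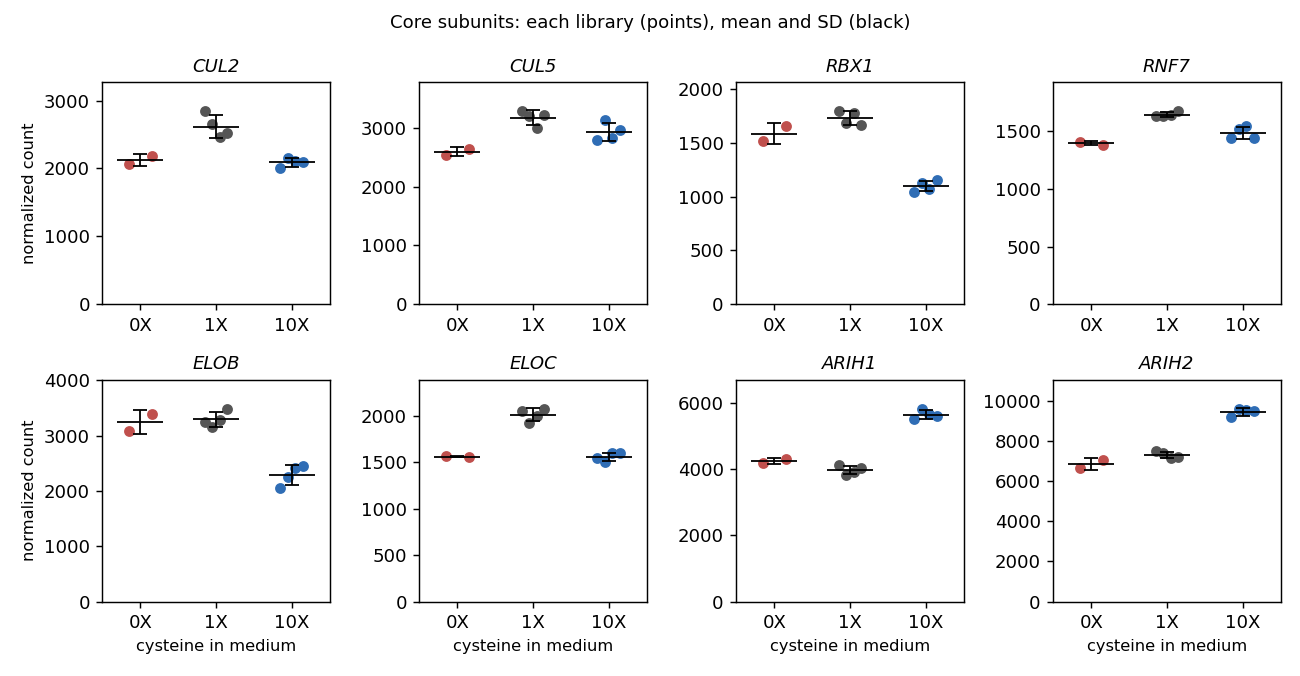
Normalized counts of the 8 core subunits in each library (points) by cysteine in the medium (0X, 1X and 10X), with the group mean and SD in black, on axes that start at 0. CUL2 and ELOC lie below 1X in both changed media, RBX1 and ELOB are lowest in 10X medium, and ARIH1 and ARIH2 are higher in 10X medium.

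Ratios between partners within a library do not depend on the scaling of that library, and were added after the values were seen. The ratio of RBX1 to RNF7 was 1.05 ± 0.0482 (SD, n = 4) in complete, 1.14 ± 0.0845 (n = 2) in cysteine-free and 0.742 ± 0.0462 (n = 4) in excess medium. That of ELOB to ELOC was 1.64 ± 0.0384, 2.08 ± 0.142 and 1.47 ± 0.0929 in the same order, so it was highest without cysteine. CUL2 to CUL5 was 0.825 ± 0.0337, 0.821 ± 0.00922 and 0.715 ± 0.0251, and ARIH1 to ARIH2 was 0.542 ± 0.017, 0.617 ± 0.0136 and 0.595 ± 0.00728. Excess and complete libraries did not overlap in any of the 4 ratios, each with an exact permutation p of 0.029, the smallest that 4 against 4 can give. The cysteine-free group cannot go below 0.067 in an exact permutation test of 2 against 4, which was the value for ELOB to ELOC and for ARIH1 to ARIH2; it was 0.267 for RBX1 to RNF7 and 0.8 for CUL2 to CUL5. Adjusted over the 12 tests, the lowest exact p was 0.08. No exact p could go below 0.029 here, so an adjusted p of 0.01 was out of reach whatever the ratios. These tests therefore cannot decide whether a ratio differed.

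**Figure D4:**
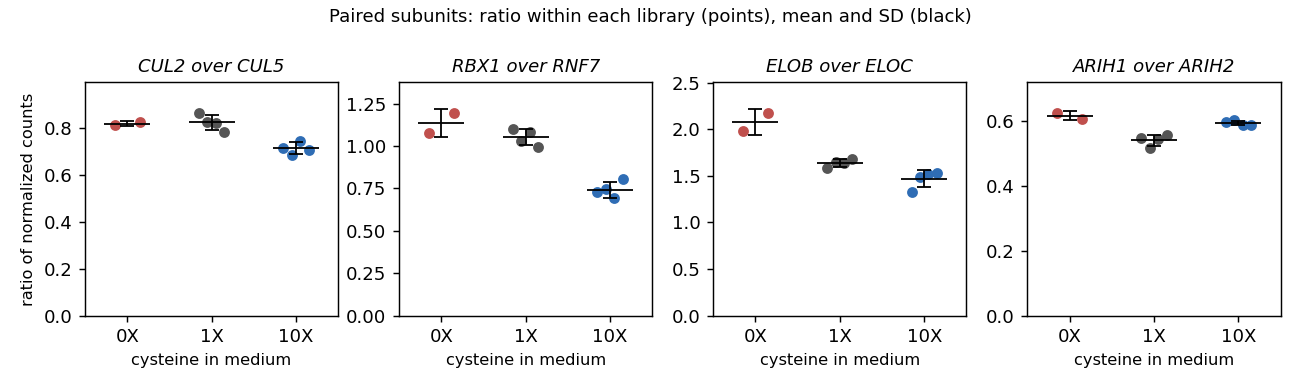
Ratio of normalized counts between partner subunits within each library (points), by cysteine in the medium, with the group mean and SD in black. RBX1 over RNF7 lies between 0.691 and 0.803 in 10X medium and between 0.995 and 1.2 in the other media.

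LRRC58, the receptor of CDO1, held 5392, 5412, 5119.7 and 4924 in complete, 4327 and 4290.3 in cysteine-free and 5182, 5395, 5157 and 5520.3 in excess medium. The cysteine-free libraries were below all others, and the excess libraries overlapped the complete ones. The transcript was thus lower without cysteine, at 82.7% of the complete mean (-0.27 ± 0.06, adjusted p = 0.00292), did not pass in excess medium (0.03 ± 0.04, adjusted p = 0.594), and was higher in excess than in cysteine-free medium (0.30 ± 0.04, adjusted p = 1.06e-06). The fall in cysteine-free medium was close in size to those of CUL2 and CUL5, and like theirs it was not called without cysteine-free replicate 1 (adjusted p = 0.0428) or 2 (0.0532) or complete replicate 1 (0.0109) or 2 (0.0154). The direct call against excess medium was kept without any single library. With no filter on low values, the fall in cysteine-free medium was not called either (adjusted p = 0.0407). The study reported no significant difference in LRRC58 transcript between cysteine-free and complete medium, with DESeq2 and a different stated number of replicates. Its plot of that comparison also marks a 2-fold threshold, which the fall here did not reach. DESeq2 on the recovered reads of these libraries called LRRC58 lower in cysteine-free medium too. Scaled to equal totals, LRRC58 was called in excess medium as well (0.13, adjusted p = 0.00548). LRRC58 shares no exon bases with another gene.

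Among the 11 receptors classed here as CUL2-type, FEM1A and KLHDC10 fell in cysteine-free medium, while in excess medium 5 rose (FEM1B, VHL, LRR1, ZER1 and FEM1C) and FEM1A fell. The share called in excess medium was 54.5%, against 61.9% of all genes with a mean of 100 or more. VHL held 6758, 6828, 5819 and 6828 in complete, 7437 and 7689.6 in cysteine-free and 10817, 11384, 11068 and 10978 in excess medium. Each excess library was above every other library, at 1.69 times the complete mean (0.76 ± 0.05, adjusted p = 8.06e-10), and the cysteine-free libraries, although above the complete ones, were not called (0.21 ± 0.07, adjusted p = 0.032). With all 3 groups in one fit, VHL was called higher in cysteine-free medium. VHL shares 23.5% of its exon bases with a gene on the other strand.

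The 3 FEM1 paralogs, which recognize C-terminal arginine and other end degrons, were all called in excess medium, FEM1A lower and the others higher, and FEM1A was called in cysteine-free medium too. FEM1A held 4079, 3959, 3893 and 4034 in complete, 2761 and 2818 in cysteine-free and 3287, 3249.7, 3479 and 3249 in excess medium, and both changed media lay below the complete libraries. It fell in cysteine-free medium (-0.52 ± 0.05, adjusted p = 2.16e-05) and in excess medium (-0.27 ± 0.04, adjusted p = 2.94e-05). FEM1B, the receptor of the folliculin-interacting protein FNIP1 in reductive stress, held 3812, 3174, 4500.4 and 2599.6 in complete, 4673 and 4853 in cysteine-free and 7684, 8391, 7843 and 8519.7 in excess medium. Its complete libraries spread widely, with replicate 4 lowest and replicate 3 highest, and all excess libraries were above them. The mean in excess medium was 2.3 times that in complete medium (1.23 ± 0.11, adjusted p = 6e-08), the largest increase of any member there, and it ranged from 1.10 to 1.36 on the log2 scale over the libraries left out. In cysteine-free medium FEM1B was not called (0.47 ± 0.15, adjusted p = 0.032). It was called higher there with all 3 groups in one fit, with the replicate block and without complete replicate 3. FEM1C held 792, 815, 747 and 775 in complete, 648 and 639 in cysteine-free and 1111, 1021, 1119 and 1092 in excess medium, in order of cysteine supply with no overlap. Its rise in excess medium was called (0.47 ± 0.06, adjusted p = 2.28e-06) and its lower level in cysteine-free medium was not (-0.28 ± 0.08, adjusted p = 0.0209). That lower level was called with quantile normalization, with all 3 groups in one fit, with the replicate block and without complete replicate 3. FEM1A shares 37.4% of its exon bases with an unnamed gene on the other strand, FEM1B 1.97% and FEM1C none.

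KLHDC10, which reads C-terminal alanine tails, held 2393, 2364, 2079 and 2402 in complete, 1645 and 1590 in cysteine-free and 2202, 2243, 2111 and 2202 in excess medium. It fell in cysteine-free medium (-0.51 ± 0.07, adjusted p = 0.000203) and was not called in excess medium (-0.07 ± 0.05, adjusted p = 0.239), and the direct comparison also called it (0.44 ± 0.05, adjusted p = 4.91e-08). Its call in cysteine-free medium was lost without cysteine-free replicate 2 (adjusted p = 0.0128). LRR1, the receptor that unloads the replicative helicase, held 953, 962, 1055 and 875 in complete, 878 and 863 in cysteine-free and 1406, 1343, 1392 and 1467 in excess medium and rose in excess medium (0.55 ± 0.06, adjusted p = 8.44e-07); it shares 24.6% of its exon bases with others, among them the abundant ribosomal protein gene RPS29. ZER1 and ZYG11B read N-terminal glycine, and of these ZER1 rose in excess medium (0.47 ± 0.06, adjusted p = 6.38e-06) while ZYG11B was not called (0.08 ± 0.05, adjusted p = 0.169). In cysteine-free medium ZER1 narrowly missed the threshold (0.34 ± 0.09, adjusted p = 0.0103), which it passed with edgeR and with DESeq2. KLHDC2, KLHDC3 and APPBP2 did not pass limma at the filter and threshold used here in either comparison with complete medium, with log2 fold changes between -0.12 and 0.32. KLHDC2 was called in cysteine-free medium by DESeq2, with all 3 groups in one fit, with the replicate block and without complete replicate 3; in excess medium KLHDC2 and APPBP2 were called when scaled to equal totals, KLHDC2 also without complete replicate 3, and APPBP2 also with TMM factors, with quantile normalization and without complete replicate 1.

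**Figure D5:**
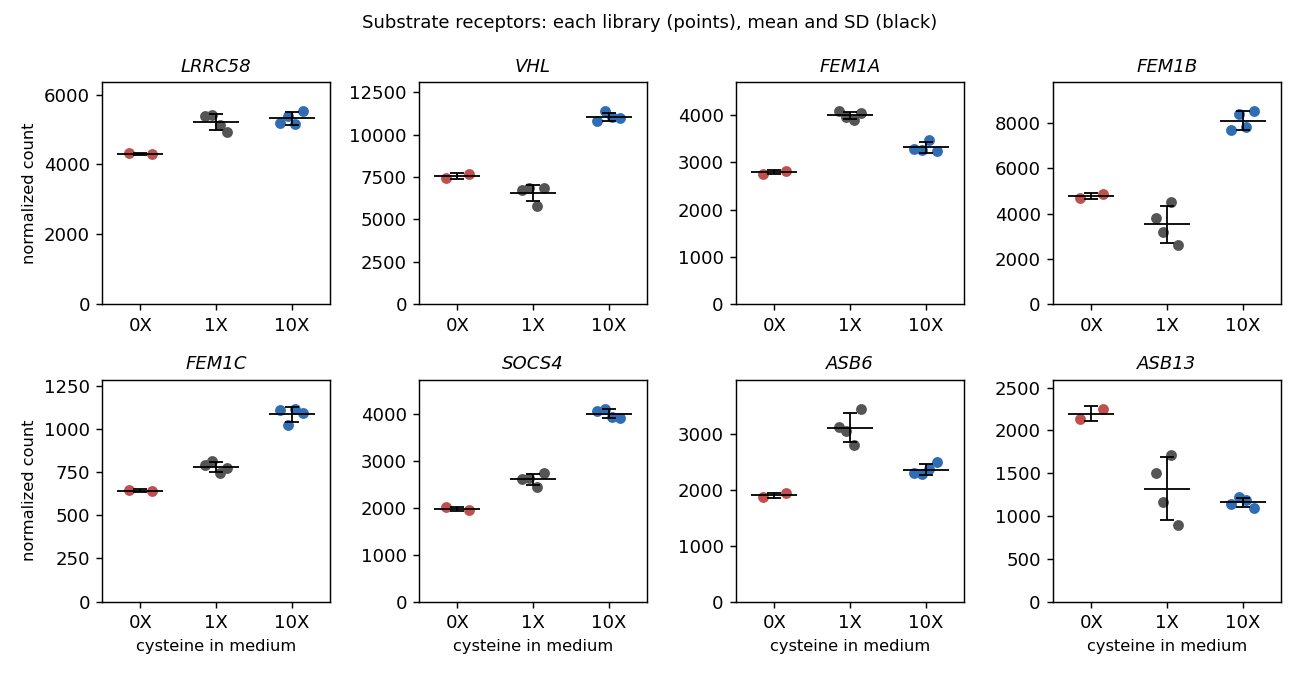
Normalized counts of 8 receptors in each library (points) by cysteine in the medium, with the group mean and SD in black, on axes that start at 0. LRRC58 is lowest at 0X, VHL and FEM1B stand apart at 10X, FEM1C and SOCS4 are ordered by cysteine, ASB6 and FEM1A are highest at 1X, and ASB13 is highest at 0X.

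Of the 8 SOCS-family genes, SOCS4 and SOCS5 fell in cysteine-free medium, and in excess medium SOCS1, SOCS4, SOCS6 and SOCS7 rose and CISH fell. The share called in excess medium was 62.5%, against 46% of all genes and 61.9% of those with a mean of 100 or more. SOCS4, which binds the epidermal growth factor receptor, held 2605, 2641, 2444 and 2741 in complete, 2011 and 1948 in cysteine-free and 4062, 4118, 3945 and 3909 in excess medium. The groups were ordered by cysteine with no overlap. It fell in cysteine-free medium (-0.40 ± 0.06, adjusted p = 0.000555), rose in excess medium (0.62 ± 0.05, adjusted p = 4.01e-09), and was 2.03 times as high in excess as in cysteine-free medium (1.02 ± 0.04, adjusted p = 1.25e-15), the largest difference among members with a mean above 100. The fall in cysteine-free medium was not called without cysteine-free replicate 1 (adjusted p = 0.0132) or 2 (0.0227).

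SOCS5, the closest relative of SOCS4, held 609, 695, 587 and 656 in complete, 410 and 458 in cysteine-free and 740.1, 701, 662 and 755 in excess medium. It fell in cysteine-free medium (-0.55 ± 0.10, adjusted p = 0.00124) and was not called in excess medium (0.17 ± 0.07, adjusted p = 0.0559). Its call in cysteine-free medium was also lost without cysteine-free replicate 1 (adjusted p = 0.0394) or 2 (0.0136). SOCS6, which binds the receptor kinase KIT, held 463, 461, 509 and 371 in complete, 517 and 559 in cysteine-free and 680.5, 677, 641 and 782 in excess medium and rose in excess medium (0.63 ± 0.09, adjusted p = 1.82e-05). SOCS7, a partner of insulin receptor substrates, held 2497, 2599, 2059.9 and 2891 in complete, 2096 and 1948 in cysteine-free and 3057, 3365, 3142 and 3417 in excess medium. It rose in excess medium (0.38 ± 0.08, adjusted p = 0.000461), and its cysteine-free libraries overlapped the complete ones (-0.30 ± 0.10, adjusted p = 0.0416). With no filter on low values, the rise in excess medium was not called by limma (adjusted p = 0.0234). SOCS7 was called lower in cysteine-free medium with the replicate block and without complete replicate 3.

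CISH and SOCS1 to SOCS3, the inducible inhibitors of the JAK kinases and their receptors, had the lowest mean levels per kb of the SOCS family in complete medium, although SOCS2 and SOCS6 overlapped there. CISH held 124, 121, 111 and 140.5 in complete, 110.5 and 100.3 in cysteine-free and 63.6, 80.4, 71.7 and 80.7 in excess medium, and it fell in excess medium to 59.7% of the complete mean (-0.74 ± 0.14, adjusted p = 0.000246). It was not called in cysteine-free medium (-0.23 ± 0.17, adjusted p = 0.353), nor in the direct comparison (-0.51 ± 0.18, adjusted p = 0.0184). SOCS1 held 39.9, 17.3, 22.3 and 13.2 in complete, 10.3 and 15.3 in cysteine-free and 55.2, 39.1, 47.8 and 57.8 in excess medium. Its call in excess medium (1.18 ± 0.29, adjusted p = 0.00244) came with overlapping groups, since complete replicate 1 lay within the excess range, and was lost without excess replicate 1 (adjusted p = 0.0103) or 4 (0.0109). That call was also lost in limma with no filter on low values (adjusted p = 0.0308). The direct comparison of excess with cysteine-free medium called it without overlap (1.90 ± 0.29, adjusted p = 4.5e-06). SOCS2 was lower in excess than in cysteine-free medium (-0.40 ± 0.10, adjusted p = 0.00136), a call lost without cysteine-free replicate 1. SOCS3 was called in no comparison at the filter and threshold used here, except in excess against complete medium without complete replicate 1.

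Of the 4 SPSB genes, SPSB3 alone was called in a comparison with complete medium; the proteins of the others bind inducible nitric oxide synthase. SPSB3, a substrate receptor for cGAS in the nucleus, held 1112, 1139, 1223 and 1326 in complete, 1238 and 1329 in cysteine-free and 1613, 1522, 1546 and 1538 in excess medium and rose in excess medium (0.38 ± 0.06, adjusted p = 3.81e-05). It shares 69% of its exon bases with EME2 and IGFALS, the largest share of any member tested. SPSB2 was below the complete range in both changed media but was not called (-0.35 ± 0.13 and -0.28 ± 0.10, adjusted p = 0.0605 and 0.0273).

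Of the 18 ASB genes, 10 passed the filter, and these include the single member that rose in cysteine-free medium. ASB13 held 1503, 1166, 1718 and 894 in complete, 2129.8 and 2254 in cysteine-free and 1144, 1216, 1185 and 1094 in excess medium. The complete libraries spread widely, with replicate 4 lowest and replicate 3 highest, and both cysteine-free libraries were above them. It was 1.66 times as high in cysteine-free as in complete medium (0.77 ± 0.18, adjusted p = 0.00613), was not called in excess medium (-0.14 ± 0.14, adjusted p = 0.386), and was lower in excess than in cysteine-free medium (-0.92 ± 0.06, adjusted p = 9.84e-13). The rise in cysteine-free medium was not called without cysteine-free replicate 1 (adjusted p = 0.0665) or 2 (0.0986), or without complete replicate 1 (0.0149) or 2 (0.0323), nor by DESeq2 (0.0441); the direct call was kept in every such fit.

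ASB6, reported as a receptor for an adaptor of insulin signaling, held 3125, 3057, 2808 and 3451 in complete, 1869 and 1935 in cysteine-free and 2295, 2283, 2371 and 2498 in excess medium. Both changed media lay below all complete libraries, and the fall in cysteine-free medium (-0.71 ± 0.08, adjusted p = 2.38e-05) was the largest among members called there; the fall in excess medium was -0.39 ± 0.06 (adjusted p = 1.61e-05), and the direct comparison called excess higher than cysteine-free medium (0.31 ± 0.05, adjusted p = 1.06e-05). ASB6 shares 24% of its exon bases with genes on the other strand, among them NTMT1. ASB1 held 1622, 1594, 1506 and 1724 in complete, 1171 and 1129 in cysteine-free and 1683, 1729.7, 1718 and 1623 in excess medium. It fell in cysteine-free medium (-0.48 ± 0.07, adjusted p = 0.000324, and 0.0161 without cysteine-free replicate 2), was not called in excess medium (0.07 ± 0.05, adjusted p = 0.279) and differed in the direct comparison (0.55 ± 0.05, adjusted p = 3.43e-09).

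In excess medium ASB3, ASB7, ASB14 and ASB18 rose. The increases were 0.49 ± 0.05 for ASB7 (adjusted p = 8.23e-07), 0.41 ± 0.06 for ASB3 (adjusted p = 6.69e-06), 0.33 ± 0.08 for ASB14 (adjusted p = 0.00139) and 1.16 ± 0.29 for ASB18 (adjusted p = 0.00227). ASB18 is scarce, at 17.9, 29.6, 12.2 and 13.2 in complete and 34.7, 47.8, 35 and 42.5 in excess medium, and its call was lost without excess replicate 2 (adjusted p = 0.0112). That call was also lost in limma with no filter on low values (adjusted p = 0.0188). ASB8, ASB12 and ASB16 were called in no comparison at the filter and threshold used here. ASB16 was called in cysteine-free medium with the replicate block and without complete replicate 3. In excess medium it was called when scaled to equal totals and without complete replicate 3.

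Members with and without exon bases shared with another gene were also counted apart, a split added after the values were seen. Of the 19 tested members that share none, 5 were called in cysteine-free medium (1 higher and 4 lower) and 9 in excess medium (7 higher and 2 lower), with medians of -0.12 and 0.11. Of the 23 that share some, 6 and 14 were called, with medians of -0.09 and 0.11. Of all genes tested, 15.9% and 46% were called in the same order, and 24.1% and 61.9% of those with a mean of 100 or more. Per the study's methods, reads that overlapped more than 1 gene were dropped, so reads on shared bases may be missing from a member's count. The library kit keeps the strand, but the strand setting of the counting is not given in the sources used here.

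The enzymes that attach NEDD8 to cullins and remove it, and the exchange factors that free the scaffolds, were also read. Of 23 such genes, all tested, 1 rose and 11 fell in cysteine-free medium, and 2 rose and 11 fell in excess medium, with medians of -0.23 and -0.18. All 23 had a mean of 100 or more, and of all genes of that mean 24.1% were called in cysteine-free medium, 13.2% lower, and 61.9% in excess medium, 33% lower. In cysteine-free medium the largest fall was that of COPS9, a small subunit of the signalosome that removes NEDD8 (-0.70 ± 0.08, adjusted p = 2.74e-05), and the rise that of SENP8, the NEDD8 protease (0.85 ± 0.17, adjusted p = 0.00259). In excess medium NEDD8 itself fell most (-0.86 ± 0.04, adjusted p = 5.12e-11), and DCUN1D2, a co-ligase for NEDD8, rose most (0.83 ± 0.06, adjusted p = 8.64e-09). Among 13 other cullins and ubiquitin-conjugating enzymes, 2 rose and 1 fell in cysteine-free medium, and 1 rose and 3 fell in excess medium. CUL9 rose most without cysteine (0.68 ± 0.09, adjusted p = 0.000147), and UBE2L3, the conjugating enzyme that hands ubiquitin to the RBR enzymes, fell most in excess medium (-0.45 ± 0.04, adjusted p = 1.68e-07).

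Beside the 3 lists that follow, 15.9% of all genes tested were called in cysteine-free medium (7.39% higher and 8.51% lower). In excess medium 46% were called (23.1% higher and 22.9% lower). At a mean of 100 or more the shares called were 24.1% and 61.9%. Other proteins with a BC box, outside the 50, numbered 15, of which 2 rose and 2 fell in cysteine-free and 3 rose and 5 fell in excess medium. The largest fall in excess medium was that of RAB40B (-1.05 ± 0.08, adjusted p = 5.15e-09). Of 25 JAK and STAT pathway genes, 1 rose in cysteine-free medium (STAT2, 0.63 ± 0.11, adjusted p = 0.00124), and 4 rose and 5 fell in excess medium, where JAK3 fell most (-0.92 ± 0.17, adjusted p = 0.000204). Of 10 known substrates of these receptors, 0 were called in cysteine-free medium by limma, by edgeR or by DESeq2 (9 of the 10 had an adjusted p in DESeq2), with 3 at an unadjusted p under 0.05 in limma and 2 in each of the others, and 4 rose and 3 fell in excess medium. IRS2, an insulin receptor substrate, rose most among those above a mean of 50 (1.34 ± 0.07, adjusted p = 3.18e-11). The other 6 called in excess medium are named after their values were seen. FNIP1, the substrate of FEM1B, rose (0.65 ± 0.06, adjusted p = 3.71e-08), and CDO1, the substrate of LRRC58, rose to 342 from 267 normalized counts (0.36 ± 0.09, adjusted p = 0.00332). CGAS rose from 9.64 to 37 normalized counts (1.98 ± 0.37, adjusted p = 0.000212). HIF1A, the substrate of VHL, fell (-0.16 ± 0.04, adjusted p = 0.00403), as did TNS1 (-0.51 ± 0.15, adjusted p = 0.00909) and SLBP, the histone stem-loop binding protein (-0.18 ± 0.04, adjusted p = 0.00141).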

How the data were processed

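Poly(A) RNA was measured in 10 libraries, grouped by the medium in their labels. In the deposited table the authors give 1 signal value per gene and library, a read count divided by a DESeq2 size factor, after alignment with STAR 2.7.10b to GRCh38. The study's methods name featureCounts and the submitters' processing notes HTSeq; reads overlapping several genes were dropped per those methods, and the strand setting and Ensembl release are not given in the sources used here. Dividing by the smallest step in a library returned whole reads for 100% of its values (within 0.02), with a median of 40850703 per library. Replicates differed beyond sampling noise, with a chi-square of 3.41 to 14 per degree of freedom. The labels call the replicates biological and the study calls them independent, without saying what was repeated, so p-values measure the spread between these libraries. The number of replicates in the study's legend for this experiment differs from the numbers of libraries analysed here.

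Names and exons came from GENCODE release 44 (61463 of 78894 IDs found) and upstream sequences from RefSeq (GRCh38.p14; 41 of 50 members matched). limma 3.58.1 was run in R 4.3.3 with a trended eBayes on the groups compared, with a pseudocount of 1, and was tested on simulated data. Ratios had exact permutation tests, 2-sided. Values per library are given for the 8 core genes, VHL and LRRC58, and for the 8 members in each of 3 comparisons that changed most among those called without overlap and with 50 or more as the higher mean; SOCS1, SPSB3 and ASB18 were added after their values were seen. For each pathway list, leading called genes above that mean are named. Members and lists were chosen with earlier results of these data known. Alternatives were pseudocounts of 0.5 and 10, no filter, a minimum of 50, equal totals, TMM factors, quantile normalization, a joint fit of the 3 groups, a replicate block, edgeR 4.0.16 and DESeq2 1.42.0 on recovered reads, a threshold of 0.05, a 2-fold minimum, and omission of each library.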

Additional observations from a re-analysis of the deposited data

Results flagged for a closer look

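Of 84 groups of 4 libraries examined, complete and excess for each member tested, 4 held a library set far from the others, with a gap to the nearest above Dixon's 95% critical value as a share of the range; chance flags about 1 group in 20, or about 4 here. In complete medium replicate 3 was low for VHL, at 5819 normalized counts against 6758 to 6828 in the others (0.936 of the range), and for KLHDC10, at 2079 against 2364 to 2402 (0.891). Replicate 4 was high for RNF7 in complete medium, at 1672 against 1632 to 1638 (0.859). In excess medium replicate 3 was high for FEM1A, at 3479 against 3249 to 3287 (0.832). The rise of VHL and the fall of FEM1A in excess medium were called without these libraries too.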

How the results depend on the processing

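In cysteine-free against complete medium, where 11 members were called, 2 were called with no filter on low values and 17 with all 3 groups in one fit. The count was 20 at an adjusted p of 0.05 and, by limma, 0 with a change of at least 2-fold. Calls over all genes moved too. With no filter 738 of 57308 genes were called, against 4618 of 29045 with it. Of the 29045, the joint fit called 6405, the threshold of 0.05 called 7987 and the 2-fold minimum 609. Without 1 complete library the member count ranged from 7 to 17. The members' median log2 fold change ranged from -0.16 to -0.0917 over all libraries left out. The 2 called with no filter were FEM1A, the only 1 of the 11 calls kept there, and RNF7. The calls lost there had an adjusted p of 0.0132 (ELOC) to 0.236 (ASB13) in limma. A fit without 1 cysteine-free library assumes that the other varies like the complete libraries. With the replicate number as a block the count was 17, and 6532 of all 29045 genes were called. The labels and the study's methods state no pairing of same-numbered libraries. Their deviations from the group means correlated between -0.116 and 0.103, and those of differently numbered libraries between -0.125 and 0.0656. The deviations of the 2 cysteine-free libraries mirror each other, so these values cannot decide whether libraries were paired. In excess against complete medium, 3 of 23 calls had a change of at least 2-fold, counts without 1 library ranged from 22 to 25, and the median moved from 0.11 to 0.16 with no filter, 0.22 with equal totals and 0.15 with quantile normalization (0.0922 to 0.14 without 1 library). In excess against cysteine-free medium, 3 of 28 calls had such a change, 21 members were called with no filter (ASB18, ASB3, CUL5, ELOB, SOCS2, SOCS6 and SPSB1 were lost) and 24 with all 3 groups in one fit (CUL5, KLHDC2, SOCS2 and SPSB1 were lost), counts without 1 library ranged from 24 to 28, and the median moved from 0.29 to 0.25 with a minimum of 50 and 0.37 with equal totals (0.25 to 0.31 without 1 library). Over all genes the direct comparison called 8864 of 57308 with no filter and 11785 of 29045 with all 3 groups in one fit, against 13954 of 29045. The cause of these shifts was not tested.

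Values that changed sign were near 0 and not called. ELOB in cysteine-free medium became 0.0002 with equal totals, 0.0355 with quantile normalization and 0.0157 with the replicate block, and ranged from -0.0929 to 0.0452 without 1 library. Between the changed media CUL2 became 0.0573 with equal totals and 0.0022 with quantile normalization (-0.0653 to 0.0173 without 1 library), and ELOC became 0.0809 with equal totals, 0.0029 with TMM factors, 0.0202 with quantile normalization and 0.0007 with edgeR and with DESeq2 (-0.0113 to 0.0166 without 1 library).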
